A study of Mus musculus with 2 samples.

Results

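Retained intron transcripts are annotated RNAs of a gene in which sequence that other transcripts of the gene splice out as an intron is part of an exon. In kidneys of C57BL/6J, an inbred strain of laboratory mouse, 2996 such transcripts from 1946 genes reached 1 TPM (a transcript level scaled to length and to the size of the library) in both libraries. They were selected on their TPM, as the rows of the transcript tables that GENCODE M21 types as retained intron and that have a TPM of 1 or more in each library, out of 14285 rows of that type and 103639 mouse transcripts in all. The study has 1 group, adult kidney at 8 weeks of age, measured in 2 libraries that the labels number as biological replicates 1 and 2. The labels describe tissue pooled from male and female littermates, name the same donor for both libraries, add no treatment or genetic change and give the health state as unknown. Long polyadenylated RNA depleted of ribosomal RNA was sequenced as stranded read pairs with added spike-in RNA. With 1 group there is no condition to compare, and because TPM chose the transcripts, all values below are descriptions without a test.

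Introns are removed from a precursor RNA by the spliceosome, which reads short signals at the intron's ends, almost always GT at the start and AG at the end. An intron that stays in the RNA usually brings a stop codon into the reading frame, and such RNAs are often kept in the nucleus or degraded, while some wait there for later splicing. Genes for splicing regulators, among them the SR proteins and the CLK kinases that phosphorylate them, are known for regulated intron retention.

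The sequences of 6 of the most abundant retained intron transcripts and of the kidney gene Calb1 show what such a transcript adds to the spliced RNA. They were taken from the GENCODE M21 transcripts on GRCm38, are written 5′ to 3′, and carry in capitals the GT or AG at a splice site that the transcript does not use. Atp5b-205 begins inside an intron of Atp5b, which encodes the beta subunit of the mitochondrial ATP synthase, and holds the last 292 of its 411 bases (chr10:128085746-128086037, plus strand). Hba-a1-202 likewise begins inside an intron of the alpha globin gene Hba-a1 and holds the last 113 of 122 bases (chr11:32283811-32283923, plus strand). Introns held whole come from Tpt1, which encodes the translationally controlled tumour protein (chr14:75846394-75846693, plus strand), and from Miox, the inositol oxygenase of the proximal tubule (chr15:89335651-89335839, plus strand). The others come from Eef1a1, the elongation factor that brings aminoacyl-tRNA to the ribosome (chr9:78479193-78479277, minus strand), and from Gabarap, an autophagy protein (chr11:69992444-69992581, plus strand). Calb1-202, chosen for display after its values were seen, belongs to the gene of the calcium-binding protein calbindin of the distal tubule. It holds 1 intron of 104 bases whole (chr4:15895525-15895628, plus strand) and ends 92 bases into the next one, which is 3192 bases long (chr4:15895686-15895777, plus strand).
Atp5b-205: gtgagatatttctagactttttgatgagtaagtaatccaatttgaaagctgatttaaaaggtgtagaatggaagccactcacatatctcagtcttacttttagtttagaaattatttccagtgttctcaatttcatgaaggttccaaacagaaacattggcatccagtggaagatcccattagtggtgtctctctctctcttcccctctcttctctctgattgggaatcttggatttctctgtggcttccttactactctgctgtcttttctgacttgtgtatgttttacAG
Hba-a1-202: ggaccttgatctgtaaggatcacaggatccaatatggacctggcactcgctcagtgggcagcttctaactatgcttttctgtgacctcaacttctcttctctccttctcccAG
Tpt1-206: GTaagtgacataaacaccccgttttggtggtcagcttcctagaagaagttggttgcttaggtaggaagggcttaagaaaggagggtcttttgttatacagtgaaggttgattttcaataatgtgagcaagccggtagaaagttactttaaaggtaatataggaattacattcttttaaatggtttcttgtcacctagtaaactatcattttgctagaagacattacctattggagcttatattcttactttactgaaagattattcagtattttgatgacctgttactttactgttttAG
Miox-202: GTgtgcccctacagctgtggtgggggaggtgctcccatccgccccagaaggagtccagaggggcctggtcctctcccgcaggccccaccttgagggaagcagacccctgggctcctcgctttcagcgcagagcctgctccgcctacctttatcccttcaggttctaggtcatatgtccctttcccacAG
Eef1a1-203: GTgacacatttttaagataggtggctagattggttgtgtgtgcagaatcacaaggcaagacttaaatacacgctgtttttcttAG
Gabarap-204: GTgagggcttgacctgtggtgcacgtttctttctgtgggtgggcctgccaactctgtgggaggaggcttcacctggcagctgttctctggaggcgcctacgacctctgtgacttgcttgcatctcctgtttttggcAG
Calb1-202, whole intron: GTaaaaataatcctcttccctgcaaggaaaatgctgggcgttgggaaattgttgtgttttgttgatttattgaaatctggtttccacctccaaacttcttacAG
Calb1-202, end of the transcript: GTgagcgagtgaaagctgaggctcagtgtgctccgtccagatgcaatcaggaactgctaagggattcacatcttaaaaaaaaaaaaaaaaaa

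Read in the frame of the coding transcript, the Tpt1 intron meets a stop codon at its base 2, the Eef1a1 intron at base 13 and the Miox intron at base 165. The 138 bases of the Gabarap intron shown are a multiple of 3 and hold no stop in that frame. Gabarap-204 also holds an intron of 232 bases that begins at the same base, and that length is not a multiple of 3. This longer intron is the one spliced out in the coding transcript Gabarap-202, which had a higher mean TPM than Gabarap-204. The reading of the 138 bases thus applies to a different coding transcript and not to Gabarap-202. The Calb1 intron of 104 bases holds none either, but its length is not a multiple of 3. The last 18 bases of Calb1-202 are all A in the genome sequence.

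Most of the transcripts held only a piece of an intron. A whole intron of a protein-coding transcript of the same gene lay inside an exon of 1250 of the 2996 (41.7%). Another 1712 (57.1%) held no whole intron but had bases inside part of one. A further 10 had no base in a coding intron beyond coding exons, and 24 lay in genes with no protein-coding transcript. Among the 2972 outside those genes, 17 had no such base, so some of the 1250 had none either. An end of the transcript lay inside an intron in 2046 of the 2972 (68.8%), with or without a whole intron held. The median transcript had 234 intronic bases, or 27.3% of its length. Retained intron transcripts that missed the threshold, in genes at 1 TPM or more, had a median of 345 intronic bases (42.9% of the length, 9193 transcripts). The annotated 3′ end lay inside an intron in 30.0% of the chosen transcripts and in 57.2% of those under the threshold. It lay within 10 bases of a coding transcript's 3′ end in 21.1% and 8.62%. The annotated 5′ end, by contrast, lay inside an intron in 43.9% of the chosen transcripts and in 40.4% of those under the threshold. The chosen transcripts thus shared more of their sequence, and more often their 3′ but not their 5′ end, with the spliced RNA than the ones left out did.

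**Figure D1:**
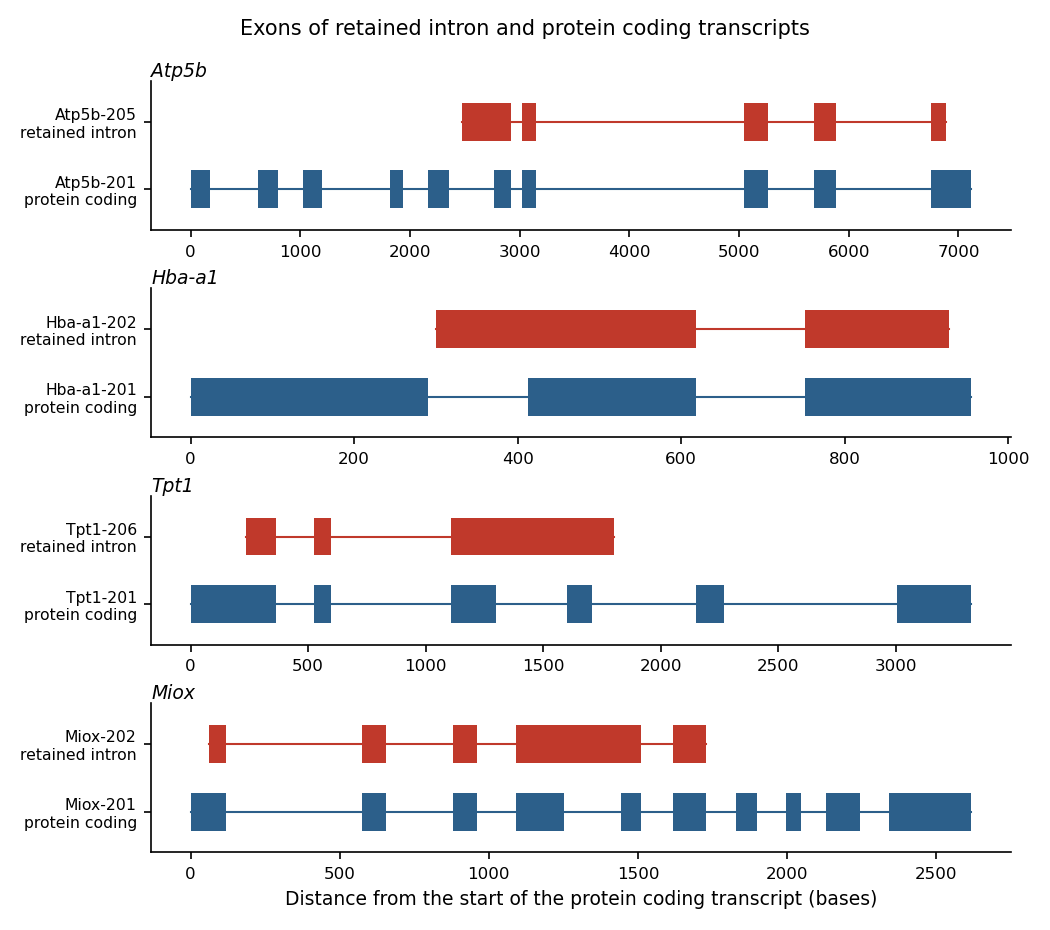
Exons (boxes) and introns (lines) of 4 abundant retained intron transcripts in red and of a protein-coding transcript of the same gene in blue, drawn to scale by distance in bases from the start of the coding transcript. Atp5b-205 and Hba-a1-202 start inside an intron, Tpt1-206 holds 1 whole intron and ends in the next, and Miox-202 holds 1 whole intron between coding exons.

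The introns held whole were short, which their definition partly fixes in advance. Such an intron must fit inside 1 exon of a chosen transcript, and these transcripts had a median length of only 803 bases. How far the difference in length from other introns goes beyond this limit was not tested for the introns held whole. The 1847 of them, counted by start and end so that some overlap, had a median length of 194 bases (quartiles 96 and 406). The median was 908 bases (272 and 2458) for the 28458 other introns of the same genes. Introns of 300 bases or fewer made up 66.5% of those held and 26.8% of the others, and introns over 1000 bases made up 8.61% and 47.6%. By position, 11.6% were the first intron, 70.4% lay in the middle and the rest were last, against 15.9% and 69.6% of the others. Sequence could be read for 1780 held introns from transcripts whose deposited and annotated lengths are the same. Of these, 97.5% began with GT and ended with AG, and the median GC content was 54.6%. For 2942 introns held only by retained intron transcripts under the threshold, the median length was 302 bases and the GC content 49.9%. Introns held by the chosen transcripts were therefore also shorter and richer in GC than those of the same annotated type that missed the threshold. Of 1689 held introns that interrupt coding sequence, 1458 (86.3%) had a stop codon in the frame, with its first base at a median position of 37. A length divisible by 3 with no stop in that frame was found for 54. Among them was the Gabarap intron of 138 bases, but not the longer one that Gabarap-202 splices out.

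**Figure D2:**
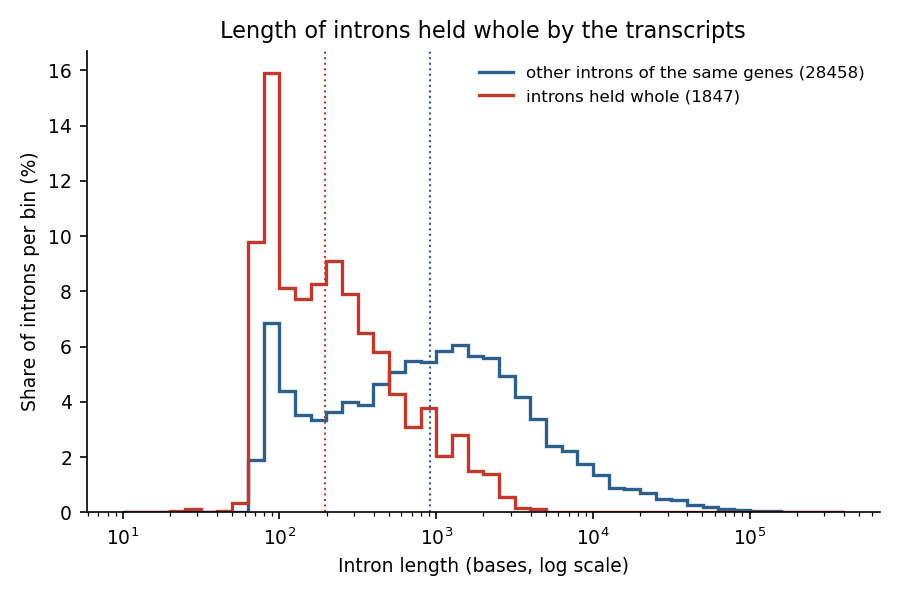
Length of introns in bases on a log scale against the share of introns per bin in percent, for introns held whole by the chosen transcripts (red) and the other introns of the same genes (blue). Dotted lines mark the medians of 194 and 908 bases, and the held introns peak near 100 bases.

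The transcripts were short and mostly minor forms of their gene. Their median length was 803 bases (quartiles 611 and 1570), against 2425 bases for the 16951 protein-coding transcripts at 1 TPM or more. Extremes were the Acsm3-208 model of 229 bases and Mroh1-207 of 9830 bases. Acsm3-208 was at 6.55 and 6.44 TPM in replicates 1 and 2 with 14 intronic bases, and Mroh1-207 at 3.10 and 1.42 TPM with 6 whole introns. Among the other short and long ones, Mms19-215 (240 bases) was at 1.99 and 6.19 TPM, Foxn3-206 (241 bases) at 2.56 and 1.43, Rasgrp2-223 (8815 bases) at 1.02 and 1.00, and Agrn-207 (8612 bases) at 8.4 and 4.2. The shortest rest on few estimated fragments, with 8.79 and 16.86 for Acsm3-208, 3.79 and 21.25 for Mms19-215 and 5 and 5 for Foxn3-206, so their levels are uncertain. Levels spanned 3 orders of magnitude from the threshold up, with a median of 3.52 TPM, 467 transcripts at a mean of 10 TPM or more and 25 at 100 or more.

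IsoPct, the percent of a gene's TPM given to 1 transcript, had a median of 9.53% over the chosen transcripts, with medians of 9.96% in replicate 1 and 8.83% in replicate 2. The same median was 60.3% for protein-coding and 17.3% for nonsense-mediated decay transcripts. IsoPct was under 10% in both libraries for 1417 transcripts (47.3%) and over 50% in both for 161 (5.37%), and 330 (11.0%) were the most abundant transcript of their gene in both.

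IsoPct was higher the fewer intronic bases a transcript had. With under 50 intronic bases the median IsoPct was 27.1% (203 transcripts), with 50 to 99 it was 15.3% (464), with 100 to 199 it was 11.4% (648) and with 200 to 499 it was 8.01% (1034). It was 6.53% for 337 transcripts with 500 or more but under 1000 intronic bases and 5.88% for 286 with 1000 or more. The share that led their gene in both libraries went from 29.1% in the first of these classes to 4.2% in the last, and the median transcript length went from 597 to 3086 bases. The leading transcripts had a median of 113 intronic bases and the others 249, and 23.4% of the leading ones held a whole intron against 44.3% of the others. The tables give an estimated number of fragments per transcript and not the number lying in the intron, so how much of a TPM rests on intronic reads was not tested. The deposited SD of the estimated count was over 10% of the count in at least 1 library for 1107 transcripts (36.9%), against 21.3% of protein-coding transcripts. The lower bound of the deposited TPM interval, whose level is not stated, was at 1 TPM or more in both libraries for 2341 (78.1%).

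**Figure D3:**
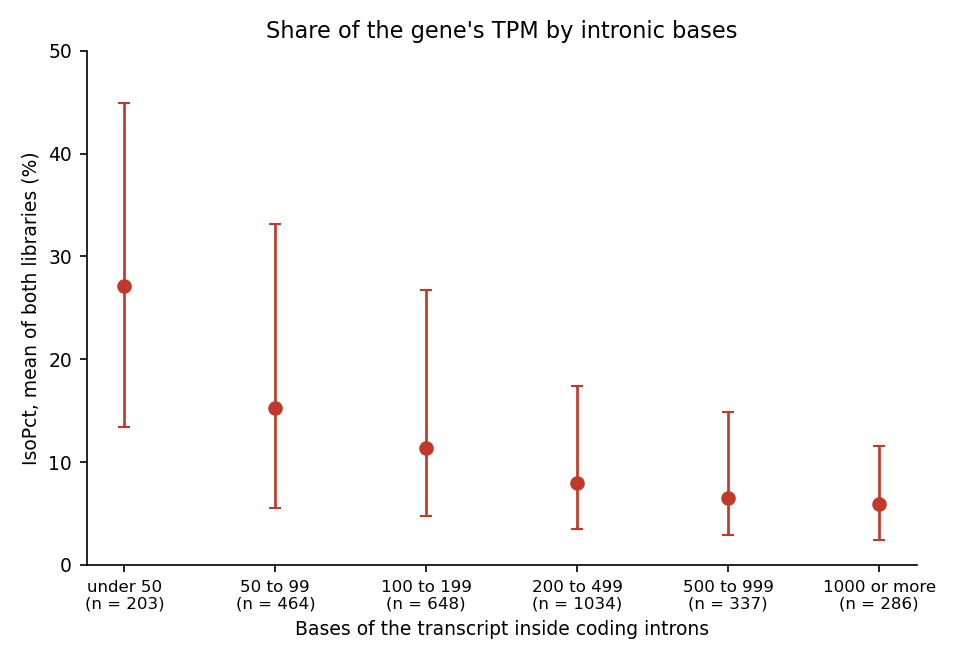
IsoPct in percent (mean of both libraries) by the number of bases a chosen transcript has inside introns of coding transcripts. Points are medians and bars span the quartiles over transcripts, and the median goes from 27.1% under 50 bases to 5.88% at 1000 bases or more.

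Just inside the threshold lay A930005H10Rik-203 at 1.00 and 1.13 TPM in replicates 1 and 2, Aspa-202 at 1.18 and 1.00, and Aspscr1-223 at 1.42 and 1.00. Just outside lay Adrm1-205 at 1.69 and 0.99 TPM and Ap1g2-210 at 2.75 and 0.99.

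Retained intron transcripts of all levels together held 4.52% of the TPM of all mouse transcripts in replicate 1 and 3.20% in replicate 2 (3.86% ± 0.933, SD, n = 2). In expected counts, the estimated fragments that are not divided by length, they held 2.78% and 2.12%. The 10 highest made up 21.5% and 19.7% of their TPM. The estimated counts of all mouse transcripts summed to 67252609 in replicate 1 and 87330096 in replicate 2, and mitochondrial genes held 11.5% and 18.5% of the TPM. All 8 kidney tubule markers were at 1 TPM or more in both libraries, with summed gene levels of 17263 and 13301 TPM. Markers of some other tissues differed between the libraries. The 5 skeletal muscle markers summed to 2.25 and 714 TPM, the 5 lymphocyte markers to 2.69 and 27.7, and the 5 adrenal cortex markers to 29.6 and 0.580. The other lists were closer, with 340 and 365 TPM for the 3 brown fat markers, 7200 and 7695 for the 5 blood markers and 14.6 and 13.4 for the 4 liver markers. No chosen transcript belonged to a gene of the muscle, lymphocyte, adrenal, brown fat or liver lists, and the part of these tissues in the results below was not tested. In tissue RNA, fewer cells of a type and less RNA per cell cannot be told apart.

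The 20 highest transcripts were led by genes of ATP synthesis, red blood cells and the ribosome. Of these 20, 15 held no whole intron, 17 had an end inside an intron, and the intronic part ranged from 55 to 428 bases. The 55 bases are those of Hbb-bs-202, whose M21 length is not the deposited 549 bases. In 10 of the 20 the retained intron form was the most abundant transcript of the gene in both libraries, and 19 were higher in replicate 1.

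Atp5b-205 led with 2356 TPM (replicate 1) and 1453 TPM (replicate 2) and an IsoPct of 40.2% and 48.0%. Atp5a1-203, from the gene of the ATP synthase alpha subunit, followed at 1647 and 1242 TPM (61.4% and 55.0%), with 131 intronic bases in 765. Ndufab1-208, from the gene of the mitochondrial acyl carrier protein of complex I, was at 419 and 194 TPM, and Slc25a4-202, from that of an ADP/ATP carrier, at 241 and 138. These transcripts were all higher in replicate 1, and each but Atp5b-205 and Slc25a4-202 held over 50% of its gene's TPM in both libraries.

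Globin transcripts are a mark of red blood cells in the tissue. Hba-a1-202 was at 1281 and 1223 TPM and held 95.9% and 87.6% of the TPM of Hba-a1, while the gene's coding transcripts were at 54.8 and 174 TPM. Hbb-bs-202, from a beta globin gene, was at 855 and 335 TPM with an IsoPct of 35.3% and 13.1%. The Hba-a1 coding exons have a near-identical copy in Hba-a2, and Hbb-bs one in Hbb-bt, so the split of fragments among these genes and transcripts is uncertain. Hba-a1-202 was the steadier, and Hbb-bs-202 fell by 1.35 on the log2(TPM + 1) scale from replicate 1 to replicate 2.

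Ribosome and translation genes gave several abundant members. Rps2-203, from a gene of the small ribosomal subunit, was at 906 and 589 TPM, and Rps9-206, from another, at 373 and 199. Tpt1-206 was at 793 and 370 TPM and made up 73.5% and 44.0% of Tpt1. The Eef1a1-203 model was at 381 and 91.0 TPM, or 10.7% and 3.02% of its gene. All of these were lower in replicate 2, Eef1a1-203 the most. Whether processed pseudogenes of such genes affect the division of fragments was not tested.

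Genes of metabolic enzymes followed. Miox-202 was at 422 and 244 TPM, which was only 6.62% and 4.71% of Miox, whose gene total was 6374 and 5174 TPM. Fasn-202, from the gene of fatty acid synthase, was at 438 and 207 TPM, and Fasn-203 at 275 and 204. Ces1d-202, from a carboxylesterase gene, was at 366 and 216 TPM with an IsoPct of 69.3% and 55.4%. Fat was present in both libraries, with the brown fat gene Ucp1 at 196 and 246 TPM and Cidec at 105 and 67.8, and its part in the level of Fasn or Ces1d was not tested. Miox thus had an abundant retained intron form beside a far more abundant spliced one, whereas in Fasn and Ces1d the retained intron forms held the larger part of the TPM.

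The rest of the 20 came from genes of varied roles. Capns1-207, from the gene of the calpain small subunit, was at 284 and 224 TPM and had 58 intronic bases in 600. Gabarap-204 was at 251 and 216 TPM, Tmem59-205 at 276 and 177, Sparc-205, from the gene of a matrix glycoprotein, at 214 and 151, and Cutal-204 at 243 and 119. Taf10-202, from the gene of a subunit of the transcription factor TFIID, was at 212 and 230 TPM and was the one transcript of the 20 that was higher in replicate 2.

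Genes that give most of their TPM to retained intron transcripts numbered 309, or 6.11% of the 5055 genes that have such a transcript annotated and reached 1 TPM in both libraries. The share of a gene is the summed TPM of all its retained intron transcripts over that of all its transcripts, and it had to exceed 50% in each library. Of the 309, 298 were protein-coding genes, 213 had a mean gene level of 10 TPM or more and 27 of 100 or more. The median share over the 5055 genes was 6.01% (quartiles 1.53% and 20.6%), and 1946 (38.5%) had a chosen transcript. In replicate 1, 435 of the 5055 genes were over 50%, 126 of them in that library only, and in replicate 2, 352 were, 43 of them in that library only. Among genes of 1 to 10 TPM 4.81% were such majority genes, of 10 to 100 TPM 7.10% and above that 5.48%.

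Because TPM divides by length, a short retained intron transcript weighs more in TPM than in fragments. In expected counts, 106 of the 309 genes (34.3%) also gave over 50% to retained intron transcripts in both libraries. The median share of the 309 was 66.7% in TPM and 41.5% in expected counts. Among the 15 highest, the contrast was wide in Fasn, at 79.0% and 72.0% of TPM but 20.3% and 15.5% of expected counts. Prrc2a (79.2% and 76.2% of TPM, 21.6% and 19.5% of counts) and Ces1d (69.5% and 55.4%, 18.7% and 11.7%) were similar, as was Atp5a1 (63.6% and 56.3%, 30.2% and 24.4%).

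The 4 genes of these 15 with a majority by both measures in both libraries were Hba-a1, Taf10, Sri and Ube2m. Taf10 gave 98.6% and 98.7% of its TPM and 88.0% and 88.8% of its counts to retained intron transcripts, of which 2 were chosen and Taf10-202 was the larger. Sri, the gene of the calcium-binding protein sorcin, gave 89.6% and 86.5% of TPM and 63.9% and 57.4% of counts. Its leading form, Sri-201, was at 159 and 152 TPM and had 11 intronic bases in 640. Ube2m, the gene of a NEDD8-conjugating enzyme, gave 64.3% and 60.4% of TPM and 57.9% and 55.0% of counts, and its leading form Ube2m-205, at 100 and 88.9 TPM, had 0 bases in a coding intron. Ube2m-205 made up 50.5% and 49.6% of the gene, and the other chosen form, Ube2m-206, 13.8% and 10.8%. Ube2m-206 has 306 intronic bases in M21, where its length is not the deposited 600 bases. In both genes the leading transcript typed as retained intron thus had few or 0 intronic bases. Of the other genes of the 15, Gnb1, which encodes a G protein beta subunit, gave 79.1% and 73.4% of its TPM, and Rap1gap, which encodes a GTPase activator, 57.8% and 54.4%. Ndufab1 gave 64.2% and 68.2%, Tmem59 74.9% and 58.8%, and Cutal 92.7% and 86.8%. Glmp, the gene of a lysosomal membrane protein, gave 62.4% and 51.8%, and Acy1, that of an aminoacylase, 50.8% and 53.1%, both near the boundary.

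**Figure D4:**
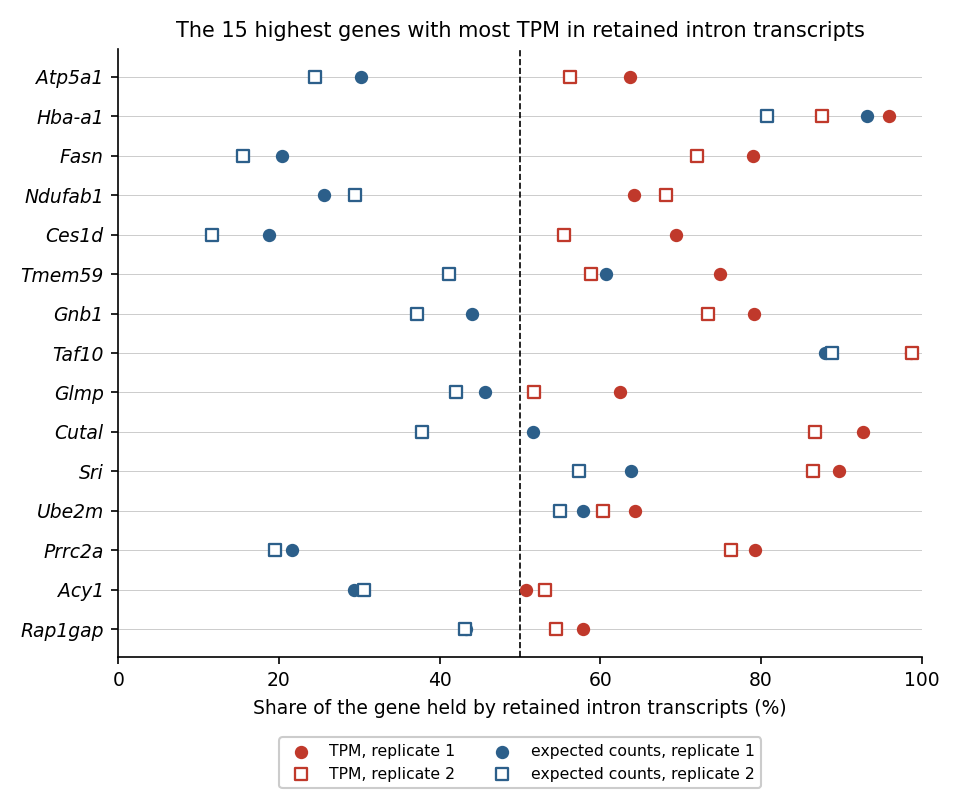
Share in percent of each gene held by its retained intron transcripts, for the 15 majority genes with the highest gene TPM, in TPM (red) and in expected counts (blue), with filled circles for replicate 1 and open squares for replicate 2. The dashed line marks 50%, all TPM points lie above it, and both count points lie above it for Hba-a1, Taf10, Sri and Ube2m only.

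A share above 90% in both libraries was found for 13 genes, named here after their values were seen. The higher ones were Taf10, Timm17a (95.5% and 94.7%), Mrps26 (97.1% and 95.6%), Spaca6 (94.0% and 95.7%) and Dpm1 (97.4% and 96.3%). Timm17a encodes a subunit of the import machinery of the mitochondrial inner membrane, Mrps26 a protein of the mitochondrial ribosome, and Dpm1 a mannose transferase of glycosylation. In expected counts these 5 genes stayed above 50% too, the lowest being Timm17a at 58.1% and 55.1%. The other 8 were at under 10 TPM per gene: Gm42742, Gpr137b-ps, Dynlt1c, Pirb, A330040F15Rik, Gm20427, Zfp457 and Pla2g4b.

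Of the 1946 genes, 1275 had 1 chosen transcript, 431 had 2 and 240 had 3 or more. Man2c1, the gene of a cytosolic mannosidase, had the most, with 9 of its 11 annotated retained intron transcripts chosen. Its retained intron transcripts held 83.3% and 82.9% of its TPM (57.7% and 58.8% of counts), with Man2c1-222 the highest at 51.9 and 38.0 TPM. Pcyt2, which encodes an enzyme of phosphatidylethanolamine synthesis, had 7 chosen transcripts that summed with the rest to 50.7% and 45.0% of its TPM, and Pcyt2-208 alone was at 128 and 76.6 TPM. Syne4, which encodes a nuclear envelope protein, had 6 (64.6% and 58.2%), as did Map4k2, a kinase gene (40.0% and 45.7%), and Mroh1. Man2c1 and Syne4 were majority genes in both libraries, and both kept a majority in expected counts.

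The lists of splicing regulators had a higher median share of TPM in retained intron transcripts than all genes with such a transcript. Among these lists, only the CLK kinases and cyclins L had a median above the upper quartile of all genes, 20.6%. Some genes of the other lists lay below the median of all genes, with mean shares of 4.88% for Srsf4 and 0.626% for Hnrnpm. Whether other genes with as many annotated retained intron transcripts have like shares was not tested. The CLK kinases and cyclins L had a median share of 35.5%, beside 6.01% over all 5055 genes. The 35.5% is over the 6 genes of the list at 1 TPM or more that have a retained intron transcript annotated. Ccnl2, the gene of cyclin L2, gave 70.9% and 62.1% of TPM and 81.7% and 76.4% of expected counts, so that its majority was larger in counts. Its Ccnl2-205 form, of 4220 bases, was at 26.7 and 18.9 TPM and held 0 whole coding introns. Clk1 gave 49.9% and 42.7%, Clk2 43.9% and 37.2%, Clk4 36.4% and 24.4%. Clk2-207 was at 8.05 and 5.27 TPM and Clk1-202 at 5.0 and 5.17. Of these, Clk2-207 held 3 whole coding introns and Clk1-202 held 0. Introns of different coding transcripts were counted apart, and the intronic bases of Clk2-207 lie in a stretch of 691 bases and another of 346. The other kinase Srpk1 (17.0% and 10.9%) and Ccnl1 (15.5% and 25.1%) had no chosen transcript.

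The SR proteins had a median share of 19.7% over 8 genes (18.2% and 18.5% in the single libraries), of which 6 had a chosen transcript and 0 were majority genes. Srsf6 gave 49.7% and 43.9% to Srsf6-204, at 22.5 and 18.8 TPM, and the same share in counts was 49.8% and 44.3%. Srsf3 went from 69.3% in replicate 1 to 26.1% in replicate 2, the widest gap of the list. Srsf5-212 was at 20.9 and 22.1 TPM and Srsf11-203 at 18.9 and 20.6, so the highest SR members were close in the 2 libraries. Whole coding introns were held by Srsf6-204 (3) and Srsf5-212 (2) but not by Srsf11-203. Introns of different coding transcripts were counted apart here, and the intronic bases of Srsf6-204 lie in 2 stretches, of 672 and 446 bases. The hnRNP proteins had a median share of 8.91% (10 genes), with Hnrnpk-204 at 29.4 and 24.6 TPM, Hnrnpl-205 at 10.7 and 8.73, and Hnrnpl-206 at 11.7 and 7.21. Spliceosome and associated factors had 12.8% (26 genes), with Srrm2-209 at 70.4 and 60.5 TPM, Acin1-217 at 14.8 and 11.3, and Snrpd3-202 at 6.51 and 6.62. None of the transcripts named here for the hnRNP and spliceosome lists held a whole coding intron. A list of genes known for regulated intron retention in other systems, which shares Ccnl2, the CLK kinases and SR genes with these lists, had 13.2% (11 genes), with Ogt-204, from the gene of the O-GlcNAc transferase, at 10.4 and 7.55 TPM.

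In most genes of the translation and respiration machinery, retained intron transcripts held little of the gene. How many genes had a chosen transcript went with the gene level, at 11.8% of all genes with one annotated from 1 to 10 TPM, 48.7% from 10 to 100 and 75.1% above that. Cytosolic ribosomal protein genes had a chosen transcript in 24 of 43 genes (55.8%) and a median share of 0.756%. Rps2 (45.4% and 36.8%) and Rps20 (23.5% and 53.8%) stood highest, and Rps16-202 was at 272 and 75.4 TPM. Translation factor genes had 10 of 13 and a median of 3.12%, with Eef1a1-205 at 18.9 and 19.9 TPM and Pabpc1-204 at 10.5 and 13.0. Nuclear genes of oxidative phosphorylation had a chosen transcript in 24 of 28 and a median share of 1.70%, and 2 of them, Atp5a1 and the complex I gene Ndufs1 (56.2% and 50.8%), were majority genes. Ndufab1, a majority gene named above, is not on this list.

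Kidney segment genes were described by the same measure. Among proximal tubule genes, 12 of 17 had a chosen transcript, the median share was 2.53% and 0 were majority genes. After Miox-202, the highest were Ggt1-220, from the gene of gamma-glutamyltransferase, at 46.1 and 43.5 TPM, and Slc5a2-208, from that of the glucose transporter SGLT2, at 46.2 and 30.6. Their genes were at 777 and 583 TPM and at 814 and 661 TPM, of which all retained intron forms made up 5.93% and 7.47% and 6.82% and 5.83%. In the loop of Henle and distal nephron list all 9 genes with an annotated retained intron transcript had a chosen one, and the median of the mean shares was 11.7%, with medians of 6.82% and 9.05% in the single libraries. Aqp3-202, from the gene of a collecting duct water channel, was at 77.5 and 59.5 TPM.

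Calb1 stood out in this list. The level of Calb1-202 was 151 TPM in the first library and 30.6 in the other, and the gene was at 170 and 56.5. Retained intron transcripts made up 89.3% and 55.0% of its TPM, and 50.7% and 13.3% of its expected counts. The gene was a majority gene by TPM in both libraries and by counts in replicate 1 alone, and its retained intron form differed more between the libraries than the gene did.

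Between the libraries, the retained intron transcripts were lower in replicate 2. The median log2 ratio of TPM + 1, replicate 2 over replicate 1, was -0.34 over the 2996 transcripts, against -0.17 over all 23633 transcripts at 1 TPM or more in both and -0.14 over protein-coding ones. Replicate 1 was the higher library for 2378 of them (79.4%) and for 69.3% of all transcripts. A 2-fold difference on TPM + 1 was found for 235 (7.84%), beside 4.41% of all transcripts. Of these, 206 (6.88%) were higher in replicate 1, beside 3.22%, and 29 (0.968%) in replicate 2, beside 1.19%. After both libraries were scaled to a median ratio of 1 over all transcripts, which removes a shift of -0.20 in log2 TPM, 165 (5.51%) differed 2-fold, beside 884 of all 23633 (3.74%). Of these 165, 119 were higher in replicate 1 and 46 in replicate 2, beside 465 and 419 of all transcripts. The part higher in replicate 1 was then 72.1% of the calls in place of 87.7%, with 52.6% over all transcripts, and the median log2 ratio was -0.19. Each library is 1 sample here, so these are differences between those libraries, and the mitochondrial, muscle and adrenal levels given above differed between them too.

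In each of 6 length classes the median ratio was lower for the retained intron than for the protein-coding transcripts. In the classes from 600 to 799 bases and from 800 to 1199 bases the median log2 ratio was -0.36 for the retained intron and -0.14 and -0.10 for the protein-coding transcripts. At 2000 bases or more it was -0.32 and -0.14, and under 400 bases -0.27 and -0.22. Calls of a 2-fold difference were 9.03% against 4.34% between 800 and 1199 bases and 12.6% against 15.1% under 400 bases. Across the 2996 transcripts, log2 TPM of the libraries had a Pearson correlation of 0.930 and a Spearman correlation of 0.875, against 0.975 and 0.957 over the protein-coding ones, which are longer and higher.

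The widest ratios in either direction came from genes whose totals were close in both libraries or differed less. Toward replicate 2, Tbcb-202, from the gene of a tubulin folding cofactor, went from 1.32 to 11.4 TPM and Lmo4-206, from that of a LIM domain protein, from 1.83 to 15.3. The ribosomal Rps20-201 went from 8.86 to 42.6 TPM and Tmem120a-203 from 1.28 to 6.27. The genes as a whole moved less, with Tbcb at 40.0 and 47.8 TPM and Lmo4 at 69.2 and 72.1. Toward replicate 1, Timm23-204, from a gene of mitochondrial protein import, was at 57.9 and 3.94 TPM and Ndufb10-202, from a complex I gene, at 219 and 24.98. Litaf-203 was at 17.5 and 1.32 TPM and Atp6v1b2-204, from the gene of a proton pump subunit, at 16.9 and 1.56. Here too the gene totals were close, at 484 and 435 TPM for Ndufb10 and 190 and 187 for Atp6v1b2, so that what differed was the estimated division of the gene's TPM among its transcripts. Some of the low values rest on few estimated fragments, with 21 for Tbcb-202 in replicate 1 and 14.8 for Litaf-203 in replicate 2. For Ndufb10-202 in replicate 2 there were 1187.

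**Figure D5:**
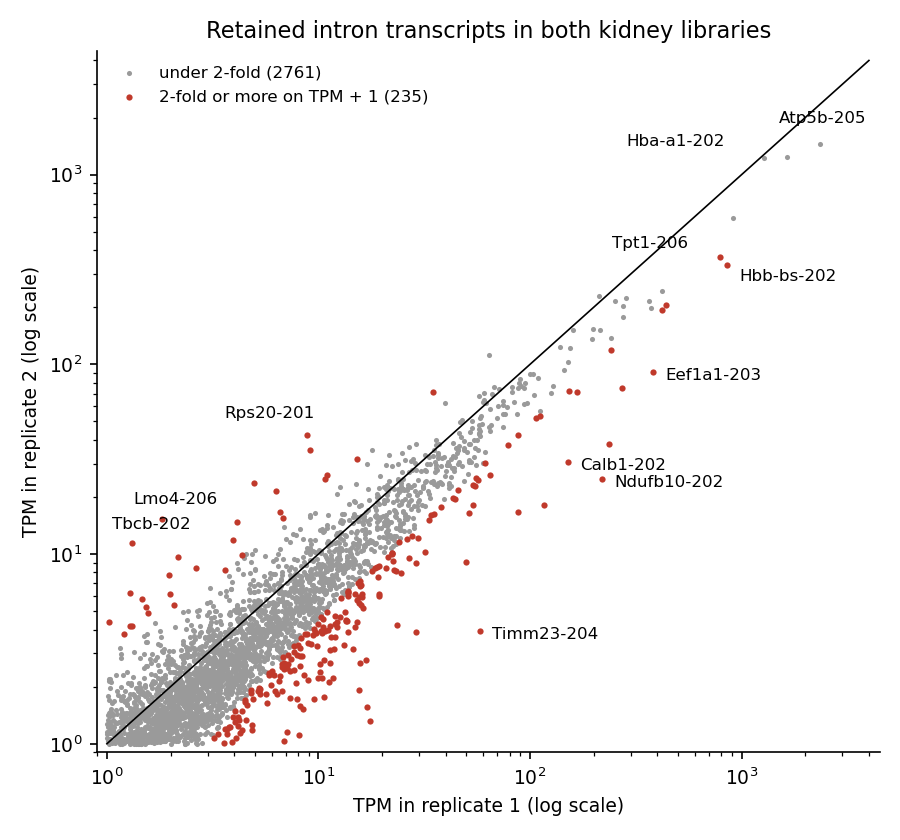
TPM of the 2996 retained intron transcripts in replicate 1 against replicate 2, both on log scales, with the line of equal levels and with the 235 that differ 2-fold or more on TPM + 1 in red. More red points lie below the line (206) than above it (29), and Atp5b-205 and Hba-a1-202 are among the highest.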

How the data were processed

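Per the text records deposited beside the tables, transcripts were quantified on mm10 with annotation M4, and which aligner and quantifier were used is not given in the sources used here. An expected count (estimated fragments, not always whole), TPM, posterior mean TPM and IsoPct in percent are the values the authors deposited per transcript. Per the file headers, the SD of each count and the TPM interval bounds are further signal values of the quantification. The gene tables' deposited TPM was used for markers. Transcript types, exons and sequences came from GENCODE M21 on GRCm38. Identifiers were matched without their version, which found 101510 of 103639 mouse transcripts (97.9%), and 2007 of the 2996 chosen transcripts had the same version and 2910 the same length. Spike-ins (97) and numeric rows (26248, all at 0) were left out. The deposited splice junction and contig tables on mm9 were not used here. Nothing in the labels beyond a replicate number says that the libraries came from separate animals.

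A gene was on at 1 TPM in both libraries, a majority was over 50%, and a 2-fold difference was an absolute log2 ratio of 1 or more with a pseudocount of 1 TPM. An intron was held when an intron of a protein-coding transcript of the gene lay whole inside an exon. Introns that differ in their start or end were counted apart, so held introns can overlap. Introns up to 300 bases were printed. Computations used Python 3.11.15, pandas 2.3.3 and numpy 2.4.6 and were checked on simulated data. Transcripts, gene lists and tests were chosen with earlier results of these data known. Named were the 20 highest transcripts, the 15 highest majority genes, the 3 highest transcripts of each list, the 3 longest, shortest, just inside and just outside, the 4 widest ratios in each direction and the 5 genes with most chosen transcripts. Genes named in a list by their share alone, and the names marked so in the text, were picked after their values were seen. Some transcripts that this rule would name are not reported here.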

Additional observations from a re-analysis of the deposited data

How the results depend on the processing

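No paired analysis was possible because there is 1 group. The number of chosen transcripts was 1923 at 2 TPM, and 3240 or 3833 without replicate 1 or replicate 2. Their part of all TPM was 2.45% in expected counts, and 3.20% to 4.52% by single library. Majority genes numbered 309 in TPM but 129 in expected counts, 174 when only transcripts of the same annotation version counted (added after the data were seen), and 357 to 443 by single library, with the 1 TPM filter on the gene applied in that library alone. The median IsoPct of 9.53% was 6.89% at a threshold of 0.5 TPM, 13.7% at 2 TPM, 7.28% for transcripts that hold a whole intron (added after the data were seen) and 8.19% to 8.73% without 1 replicate. The 235 transcripts with a 2-fold difference became 456 with a pseudocount of 0.1 TPM and 499 with none. No share over all transcripts is given at these pseudocounts, so the 456 and 499 cannot be set beside a background. With a pseudocount of 1 TPM, 81 of the 1250 that hold a whole intron differed (6.48%, also added after the data were seen), beside 4.41% of all transcripts. The median held intron of 194 bases was 207 at 0.5 TPM, 180 at 2 TPM and 206 against introns of any transcript type. By construction, thresholds change which transcripts are counted, and TPM weighs short transcripts more than counts do. Of 37 alternatives, 22 stayed within 1.5 times the count or within 1 SD, and 15 did not. Among the 22 are the single-library values given above for the chosen transcripts, their part of TPM and the majority genes. For the part of TPM this outcome was fixed in advance, because 1 library always lies within 1 SD of the mean of 2. Depth limits the low members, and 2984 had 10 or more expected counts in both libraries.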

Other observations

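Host genes of small nucleolar RNAs, whose introns carry the small RNAs, had a median retained intron share of 30.8% of TPM over the 6 genes of the list at 1 TPM or more that have such a transcript annotated, and 3 of them had a chosen transcript. Gas5 gave 40.9% and 34.4% of its TPM and 62.1% and 54.2% of its expected counts, with Gas5-201 at 9.64 and 11.8 TPM in replicates 1 and 2. Zfas1-201 was at 7.45 and 6.61 TPM and Snhg17-207 at 4.41 and 1.74. By counts, Gas5 and Snhg17 (63.9% and 57.5%) gave over 50% to retained intron transcripts in both libraries, while by TPM neither did.

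Circadian and early response genes had a median share of 10.5% over 6 genes. Nr1d2, a nuclear receptor gene of the circadian clock, went from 67.6% of TPM in replicate 1 to 30.3% in replicate 2, with Nr1d2-202 at 13.2 and 3.31 TPM, while Tef-207, from another clock gene, was at 10.6 and 7.58. Sampling times of the libraries are not given in the labels used here.

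The run of A at the end of Calb1-202 was looked for elsewhere after it was seen. At least 8 of the last 10 bases were A in 23 of 891 chosen transcripts with their 3′ end in an intron (2.58%), in 17 of 2008 with the end in a coding exon (0.847%), and in 178 of 5254 under the threshold with the end in an intron (3.39%).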
